A study of Mus musculus with 7 samples.

Results

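The 9 genes described here encode the paralogous subunits of cytochrome c oxidase that exist as muscle and general forms, namely Cox4i1, Cox4i2, Cox6a1, Cox6a2, Cox7a1, Cox7a2, Cox7a2l, Cox8a and Cox8b. They were chosen by symbol, and all 9 were found among the 21487 genes measured. All of them passed the filter on low counts, which kept 13409 genes for testing. RNA was sequenced from the gastrocnemius, a mostly fast calf muscle, of mice with an immobilized limb. The 4 knockout libraries came from mice that lack DJ-1 (gene Park7) in skeletal muscle, and the 3 control libraries from floxed mice, whose genotype the labels give as wild type. Every library of both groups came from immobilized muscle, so the comparison was knockout minus control under disuse, without a freely moving limb. The Cre line, the exon removed, the strain, sex and age of the mice and the length of immobilization were not given in the sources used here. Whether each library is a separate animal is also not said in the labels, so p-values measure the spread between these samples only.

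Cytochrome c oxidase, or complex IV, is the last enzyme of the mitochondrial electron transport chain. It passes electrons from cytochrome c to oxygen and pumps protons across the inner membrane. Its catalytic core is encoded by mitochondrial DNA, and smaller subunits encoded in the nucleus surround that core and tune its activity and stability. Several of these small subunits exist as gene pairs, with a form that is abundant in heart and skeletal muscle (Cox6a2, Cox7a1, Cox8b) and a general form found in most tissues (Cox6a1, Cox7a2, Cox8a).

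Park7 itself was lower in every knockout library. The controls read 239.7, 229.5 and 266 CPM (counts-per-million of the scaled library size), and the knockouts 35.9, 41.5, 34.7 and 37.2 CPM. By the quasi-likelihood test of edgeR, with p-values adjusted by the Benjamini-Hochberg method over all tested genes, the log2 fold change was -2.71 (SE 0.0895, adjusted p = 2.52e-06). Means are given with the SD over the 3 control (n = 3) or 4 knockout libraries (n = 4). Library totals ran from 24458343 to 26389010 counts. The muscle fibre genes Ckm and Acta1 were abundant in both groups, at means of 12440 and 21640 CPM in the controls and 16950 and 18690 CPM in the knockouts. The mRNAs of mitochondrial DNA took 16.99% to 19.97% of the counts in the controls and 8.72% to 11.6% in the knockouts.

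Of the 9 isoform genes, 5 fell in the knockout and none rose. The genes that fell were Cox4i1, Cox6a1, Cox6a2, Cox7a1 and Cox7a2. Among all tested genes 14.9% were called in either direction at an adjusted p under 0.05, with 8.23% called lower and 6.67% called higher. All 9 log2 fold changes were below 0, with a median of -0.379, against a median of 0.006 over all tested genes. In 5 of the 9 genes every knockout library lay below every control library, which held for 14.8% of all tested genes, and groups that did not overlap in either direction for 28.8%. The muscle and general forms are mixed among the genes that fell: 2 of the 3 muscle forms passed the test, as did 2 of their 3 general counterparts. The number of isoform genes called was smaller without control 1 (2 genes), control 2 (1 gene), control 3 (2 genes), knockout 1 (4 genes), knockout 3 (3 genes) or knockout 4 (4 genes), and was 5 without knockout 2. Cox7a1 was called in each of those fits. With the mRNAs of mitochondrial DNA left out of the scaling, 5 isoform genes were called. In whole muscle, fewer cells of a type and less RNA per cell cannot be told apart.

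**Figure D1:**
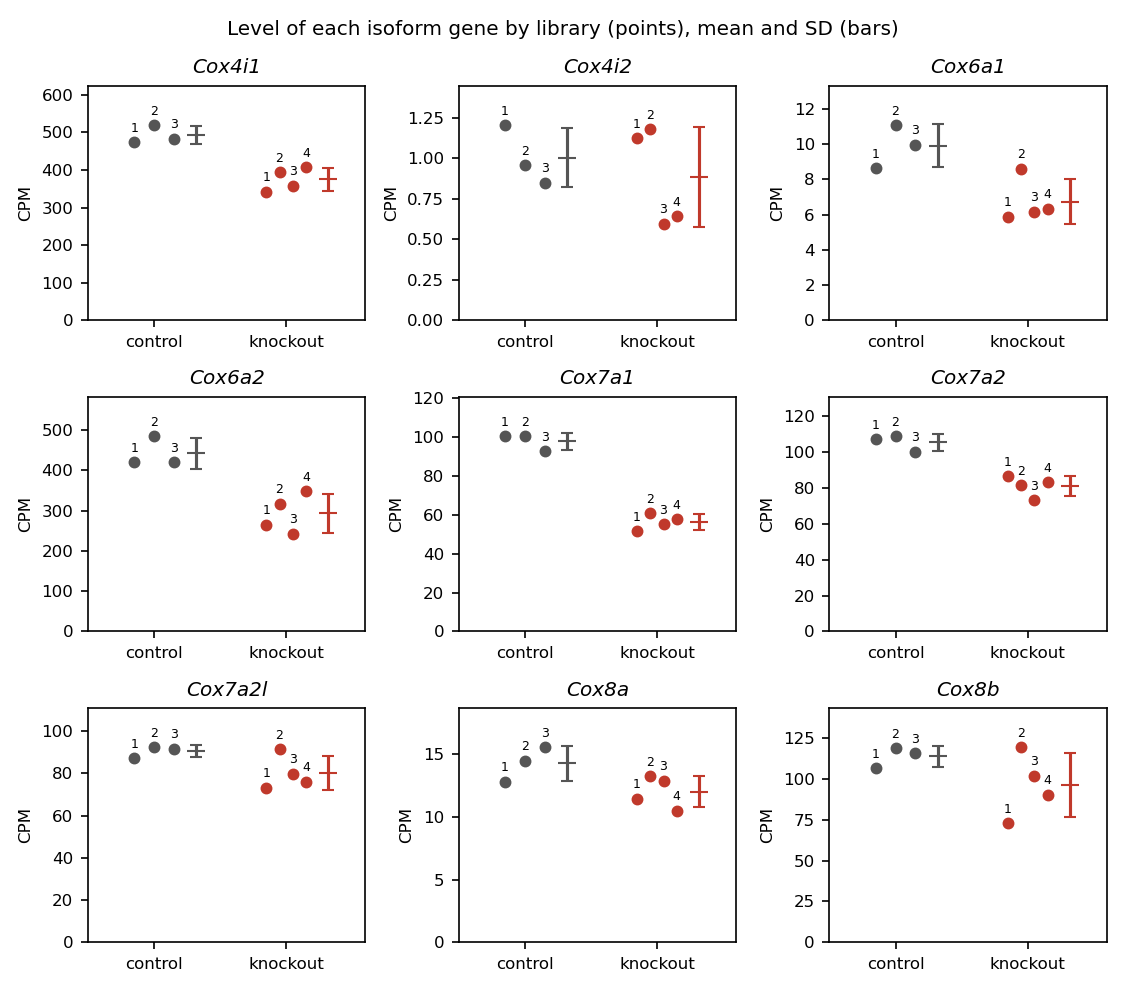
Level of each of the 9 isoform genes in CPM (y axis, starting at 0) in the 3 control and 4 knockout libraries; numbered points are libraries and bars give the mean and SD. All knockout points of Cox4i1, Cox6a1, Cox6a2, Cox7a1 and Cox7a2 lie below all control points, whereas the groups overlap for the other 4 genes.

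Both forms of subunit 7a fell. Cox7a1, the muscle and heart form, had the largest fall of the 9 genes. Its controls read 100.4, 100.2 and 92.6 CPM and its knockouts 51.4, 60.7, 55.1 and 57.7 CPM. The control libraries were close to each other, and each of them lay far above the highest knockout. The control mean was 97.7 ± 4.48 CPM and the knockout mean 56.2 ± 3.91 CPM, or 42.5% lower. The log2 fold change was -0.80 (SE 0.0788, 95% interval -0.98 to -0.62, edgeR adjusted p = 0.00207), which placed Cox7a1 at rank 19 by p among all tested genes. It was called without each library in turn, with an adjusted p from 0.00208 to 0.0112.

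Cox7a2, the general form of the same subunit, fell as well. Its controls read 107.2, 108.9 and 100.1 CPM and its knockouts 86.5, 81.4, 73.05 and 83.2 CPM. The groups did not overlap. The control mean was 105.4 ± 4.70 CPM and the knockout mean 81.0 ± 5.73 CPM, or 23.1% lower, a log2 fold change of -0.38 (SE 0.0792, edgeR adjusted p = 0.0167). The call was lost without control 1 (adjusted p = 0.0574) or control 2 (0.0570).

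Cox7a2l, also called SCAF1, is a relative of subunit 7a that joins complex III to complex IV in supercomplexes. Its controls read 87.3, 92.5 and 91.7 CPM and its knockouts 73.2, 91.4, 79.9 and 76.1 CPM. Knockout 2 sat among the controls, and the other 3 knockouts lay below them. The log2 fold change was -0.18 (SE 0.0881, 95% interval -0.37 to 0.02) and did not pass (edgeR adjusted p = 0.207). The log2 ratio of Cox7a2l to Cox7a2 was -0.22 ± 0.0866 in the controls and -0.02 ± 0.198 in the knockouts, with overlapping groups (difference 0.20, SE 0.111, exact permutation p = 0.257, adjusted 0.643).

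The coding sequences of Cox7a1 and Cox7a2 are shown because the ratio of this pair, given next, needs reads of the 2 genes to be told apart. They are written 5′ to 3′ without the stop codon, from GENCODE transcripts on GRCm38. Capitals mark bases that differ or have no partner when the pair is aligned.
Cox7a1: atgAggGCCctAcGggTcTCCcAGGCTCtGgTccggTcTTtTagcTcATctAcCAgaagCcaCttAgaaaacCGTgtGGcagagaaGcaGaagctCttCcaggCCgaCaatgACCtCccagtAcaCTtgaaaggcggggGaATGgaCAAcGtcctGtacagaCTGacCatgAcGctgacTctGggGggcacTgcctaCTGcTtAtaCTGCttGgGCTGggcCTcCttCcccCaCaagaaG
Cox7a2: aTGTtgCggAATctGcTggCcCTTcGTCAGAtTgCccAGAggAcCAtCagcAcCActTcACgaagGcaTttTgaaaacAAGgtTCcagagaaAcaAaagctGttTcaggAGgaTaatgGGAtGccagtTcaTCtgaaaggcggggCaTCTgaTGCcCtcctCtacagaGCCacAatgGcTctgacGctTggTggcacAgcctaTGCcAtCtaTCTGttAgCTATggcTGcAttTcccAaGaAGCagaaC
The aligned pair was identical at 60.2% of 249 positions, and its longest identical stretch was 12 bases, against reads of 150 bases. Every estimated count of the 9 genes was deposited as a whole number, without the fractions that appear where the program divides reads between genes. Whether reads that match several genes were assigned to any of them was not tested. Cox7a1 lies on the plus strand at chr7:30184144-30186078 with 4 exons, and Cox7a2 on the minus strand at chr9:79755361-79759878 with 4 exons (GRCm38). Identity of the coding sequences was 47.2% between Cox7a2 and Cox7a2l and 43.6% between Cox7a1 and Cox7a2l.

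The ratio of Cox7a1 to Cox7a2 within a library does not depend on how libraries are scaled. On the log2 scale of raw counts the ratio was -0.09, -0.12 and -0.11 in the controls and -0.75, -0.42, -0.41 and -0.53 in the knockouts. The controls were nearly equal, every knockout lay below them, and knockout 1 was the lowest. The ratio was 25.2% lower in the knockouts (difference on the log2 scale -0.42, SE 0.0794, 2-sided exact permutation p = 0.0286, the smallest that 35 splits of 3 and 4 libraries can give). Adjusted over the 5 ratios computed here, p was 0.143, which is the smallest value that a single ratio among 5 can reach, so the difference did not pass after correction. With any library left out the difference ran from -0.46 to -0.34.

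**Figure D2:**
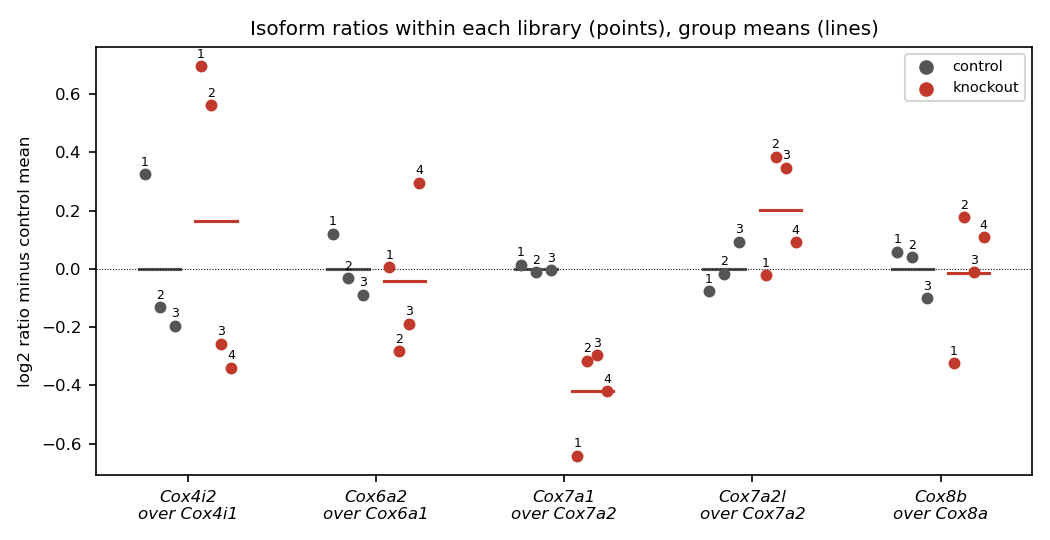
Log2 ratio of the counts of each isoform pair in each library (numbered points), shown as the distance from the control mean of that ratio (y axis), with lines at the group means. In the Cox7a1 over Cox7a2 ratio every knockout lies below every control; the other 4 ratios overlap between groups.

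Levels of different genes were compared as CPM per kb of transcript. On that scale Cox7a1 made up 61.1%, 60.7% and 60.8% of the sum of Cox7a1 and Cox7a2 in the controls, and 49.9%, 55.55%, 55.9% and 53.8% in the knockouts. The mean share was 60.9% ± 0.226 in the controls and 53.8% ± 2.73 in the knockouts. With lengths shortened for an assumed fragment of 200 bases, a setting chosen after the data were seen, the shares were 68.7% and 62.2%. The level of a share therefore depends on the length assumed for such short transcripts, and the lengths the authors' program used were not given in the sources used here. With Cox7a2l included, Cox7a1 took 50.5% ± 0.676 of the 3 genes in the controls and 42.0% ± 1.59 in the knockouts. Cox7a2l took 17.1% ± 0.900 and 21.9% ± 1.47 on the same scale.

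**Figure D3:**
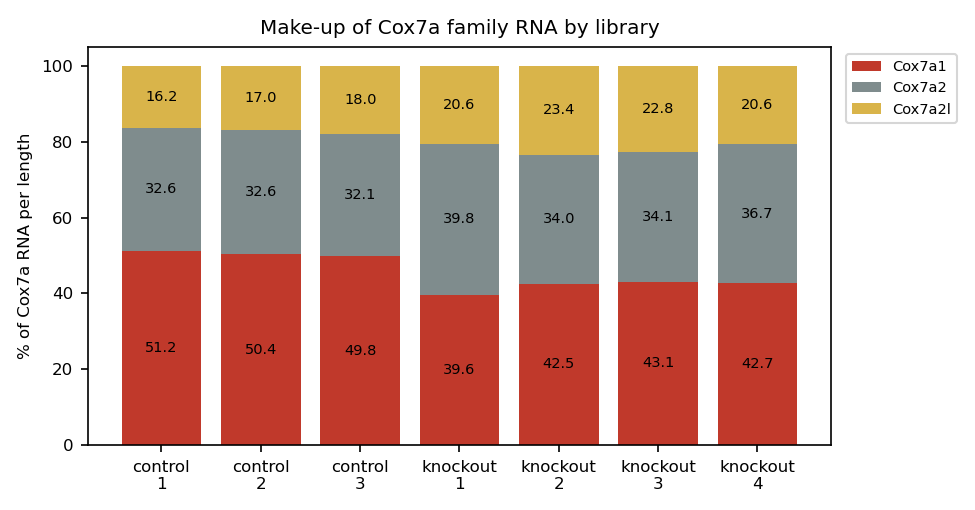
Make-up of Cox7a1, Cox7a2 and Cox7a2l RNA per transcript length in each library, as percent of the 3 genes (y axis, from 0). The Cox7a1 share lies between 49.8% and 51.2% in the controls and between 39.6% and 43.1% in the knockouts.

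Subunit 6a carries the most unequal of the muscle and general pairs, and both of its forms fell. Cox6a2, the heart and muscle form, read 420.9, 485.1 and 419.7 CPM in the controls and 264.6, 316.7, 243 and 348.4 CPM in the knockouts. All knockouts lay below all controls, with knockout 3 lowest and knockout 4 highest among them. The control mean was 441.9 ± 37.4 CPM and the knockout mean 293.2 ± 48.1 CPM, a log2 fold change of -0.59 (95% interval -0.88 to -0.30, edgeR adjusted p = 0.0195). The call was lost without control 2 (adjusted p = 0.0654) or control 3 (0.0514).

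Cox6a1, the general form, was scarce in this muscle. Its controls read 8.64, 11.1 and 9.97 CPM and its knockouts 5.88, 8.60, 6.17 and 6.33 CPM. The groups were separated by a narrow margin, since knockout 2 came just under control 1 and stood apart from the other 3 knockouts. The control mean was 9.90 ± 1.22 CPM and the knockout mean 6.75 ± 1.25 CPM, a log2 fold change of -0.55 (95% interval -0.91 to -0.20, edgeR adjusted p = 0.0463). This call stood close to the threshold: it was lost without any library other than knockout 2 (adjusted p from 0.0642 to 0.142), with no filter (0.0565) and with the replicate number as a block (0.0553).

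Cox6a2 made up 97.4% ± 0.187 of the pair per length in the controls and 97.3% ± 0.446 in the knockouts. The log2 ratio of Cox6a2 to Cox6a1 counts was 5.48 ± 0.108 in the controls and 5.44 ± 0.256 in the knockouts. The groups overlapped, and the difference was -0.04 (SE 0.142, exact permutation p = 0.857, adjusted 0.943). Both genes lie on minus strands, Cox6a2 at chr7:128205435-128206387 and Cox6a1 at chr5:115345642-115348981 (GRCm38), with 3 exons each. Exons of Cox6a2 overlap those of Itgad on the opposite strand, which had 1 count in all 7 libraries together.

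Subunit 8 is the pair in which neither form passed the test. Cox8b, the heart and muscle form, whose human counterpart is a pseudogene, read 106.4, 118.7 and 115.7 CPM in the controls and 72.9, 119.3, 101.9 and 90.2 CPM in the knockouts. Knockout 2 was the highest of all 7 libraries and knockout 1 the lowest. The log2 fold change was -0.24 (SE 0.146, 95% interval -0.57 to 0.09, edgeR adjusted p = 0.290). Cox8a, the general form, read 12.8, 14.45 and 15.5 CPM in the controls and 11.4, 13.2, 12.9 and 10.5 CPM in the knockouts. Control 1 lay below 2 of the knockouts. The log2 fold change was -0.25 (SE 0.117, 95% interval -0.51 to 0.01, edgeR adjusted p = 0.179).

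The intervals of both subunit 8 genes reach from little difference to falls as large as those of Cox4i1 or Cox7a2. Without knockout 2 the log2 fold change of Cox8b was -0.36 (adjusted p = 0.0767). The log2 ratio of Cox8b to Cox8a was 2.996 ± 0.0871 in the controls and 2.98 ± 0.222 in the knockouts, with a difference of -0.01 (SE 0.122, exact permutation p = 0.943, adjusted 0.943). Per length, Cox8b made up 92.4% ± 0.430 of the pair in the controls and 92.3% ± 1.14 in the knockouts. Cox8b lies on the minus strand at chr7:140898945-140900446 and Cox8a on the minus strand at chr19:7215153-7217616 (GRCm38), with 2 exons each.

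Subunit 4 differs from the others in that the common form, Cox4i1, is also the main form in muscle, while Cox4i2 is known from lung and from pericytes and is induced by low oxygen. Cox4i1 read 474.5, 519.4 and 482.9 CPM in the controls and 342.4, 394.1, 357.8 and 408.1 CPM in the knockouts. The groups did not overlap. The control mean was 492.3 ± 23.9 CPM and the knockout mean 375.6 ± 30.6 CPM, or 23.7% lower, a log2 fold change of -0.39 (SE 0.0864, edgeR adjusted p = 0.0210). The call was lost without control 1, control 2, control 3 or knockout 3 (adjusted p from 0.0534 to 0.0699).

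Cox4i2 was near the limit of what these libraries can measure. Its controls held 30, 25 and 22 counts and its knockouts 31, 31, 15 and 16 counts, or 1.21, 0.958 and 0.850 CPM against 1.13, 1.18, 0.598 and 0.645 CPM. Knockouts 1 and 2 lay between control 1 and the other two controls, and knockouts 3 and 4 lay below all controls. The log2 fold change was -0.17 (SE 0.304, 95% interval -0.85 to 0.52, edgeR adjusted p = 0.743), an interval that reaches from a fall larger than that of Cox7a1 to a rise, so no difference was detectable at this depth. Cox4i2 made up 0.210% ± 0.0438 of the pair per length in the controls and 0.243% ± 0.0900 in the knockouts. The log2 ratio of Cox4i2 to Cox4i1 differed by 0.17 (SE 0.315, exact permutation p = 0.657, adjusted 0.943).

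Cox4i1 lies at chr8:120668222-120674207 on the plus strand with 5 exons, and Cox4i2 at chr2:152754173-152765037 on the plus strand with 5 exons (GRCm38). Exons of Cox4i1 overlap Emc8 on the opposite strand, and whether the counting used strand was not given in the sources used here. Emc8 averaged 14.6 CPM in the controls and 13.9 CPM in the knockouts (edgeR adjusted p = 0.666).

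Per length the order of the 9 genes was the same in both groups. Cox4i1 and Cox6a2 led with 660.8 ± 32.1 and 649.8 ± 55.0 CPM per kb in the controls and 504.2 ± 41.1 and 431.1 ± 70.7 CPM per kb in the knockouts. These neighbours overlapped in both groups, so their order is not set by the data, and with shortened lengths Cox6a2 came first in the controls. Cox8b, Cox7a1, Cox7a2 and Cox7a2l followed at 315.6, 248.7, 159.9 and 84.1 CPM per kb in the controls and at 266.9, 143.1, 123.0 and 74.5 CPM per kb in the knockouts. Cox8a, Cox6a1 and Cox4i2 came last, at 25.9, 17.3 and 1.38 CPM per kb in the controls and 21.8, 11.8 and 1.22 CPM per kb in the knockouts. With full lengths Cox7a1 lay above Cox7a2 without overlap in the controls, and the same neighbours overlapped in the knockouts. There knockout 1 held slightly less Cox7a1 (130.9 CPM per kb) than Cox7a2 (131.3 CPM per kb). With shortened lengths the knockout means were 289.8 CPM per kb for Cox7a1 and 176.2 for Cox7a2. How near these 2 genes lie therefore depends on the length assumed.

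Promoter windows from RefSeq (GRCm38.p6), which run from 250 bases before to 50 bases after the start of the transcript, were found for 6 of the 9 genes. Cox4i1, Cox4i2 and Cox6a2 had no entry. The windows of Cox7a1, Cox7a2 and Cox8b are shown, as a muscle form that fell, its general partner that also fell and a muscle form that did not pass. Capitals mark matches, on either strand, to the letters CANNTG (E-box, bound by myogenic factors), CGGAAG (ETS core, bound by the nuclear respiratory factor GABP), CCAAT (bound by NF-Y), AAGGTCA (half-site of estrogen-related receptors), an NRF1 site or a MEF2 site.
Cox7a1 promoter, chr7:30183921-30184220, plus strand: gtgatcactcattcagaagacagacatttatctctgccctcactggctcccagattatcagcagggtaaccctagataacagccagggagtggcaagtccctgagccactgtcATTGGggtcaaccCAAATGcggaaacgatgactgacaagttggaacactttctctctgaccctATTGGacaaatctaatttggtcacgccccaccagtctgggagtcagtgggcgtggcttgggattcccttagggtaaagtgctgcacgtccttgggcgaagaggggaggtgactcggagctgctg
Cox7a2 promoter, chr9:79759804-79760103, minus strand: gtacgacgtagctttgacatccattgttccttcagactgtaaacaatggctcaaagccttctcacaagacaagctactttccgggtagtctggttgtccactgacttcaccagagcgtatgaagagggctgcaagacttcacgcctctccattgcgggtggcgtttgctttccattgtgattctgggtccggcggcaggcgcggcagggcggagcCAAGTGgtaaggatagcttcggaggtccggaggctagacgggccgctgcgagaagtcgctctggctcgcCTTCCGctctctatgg
Cox8b promoter, chr7:140900397-140900696, minus strand: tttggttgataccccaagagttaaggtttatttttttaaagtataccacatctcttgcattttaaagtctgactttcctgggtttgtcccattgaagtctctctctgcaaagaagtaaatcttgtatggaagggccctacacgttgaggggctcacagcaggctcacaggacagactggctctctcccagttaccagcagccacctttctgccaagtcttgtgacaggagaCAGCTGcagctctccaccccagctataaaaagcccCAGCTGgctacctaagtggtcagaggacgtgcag
The Cox7a1 window held 1 E-box and 2 CCAAT boxes. The Cox7a2 window held 1 E-box and 1 ETS core, and the Cox8b window held 2 E-boxes. Of all 32851 windows 72.3% held an E-box, 37.4% a CCAAT box, 16.9% an ETS core, 6.2% an NRF1 site, 4.7% an estrogen-related receptor half-site and 0.6% a MEF2 site. Such matches describe letters and not bound sites, and they were not tested against the change in RNA.

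The partners of these subunits within complex IV were lower as well. Of the 7 other nuclear subunits, 6 fell and none rose, and all 7 were lower in every knockout than in any control. Among all tested genes 8.23% were called lower, and 14.8% were lower in every knockout than in any control. All 7 subunits had a log2 fold change below 0. The median over these 7 subunits was -0.344. Cox5a, a subunit on the matrix side, had means of 341.8 ± 6.45 CPM in control and 245.2 ± 9.04 CPM in knockout muscle and fell on the log2 scale by 0.48 (edgeR adjusted p = 0.00533). Cox5b, the zinc-binding subunit, fell on the log2 scale by 0.34 (adjusted p = 0.0236). Cox6b1, which faces the intermembrane space, fell on the log2 scale by 0.33 (adjusted p = 0.0202). Cox6c and Cox7b, single-pass membrane subunits, fell on the log2 scale by 0.51 and 0.48 (adjusted p = 0.00641 and 0.00842).

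Ndufa4, once assigned to complex I and now counted as a subunit of complex IV, fell on the log2 scale by 0.29 (edgeR adjusted p = 0.0271). Cox7c had a log2 fold change of -0.23 and did not pass (adjusted p = 0.0704), and its estimated counts were not all whole, so some of its reads were shared with other genes. Without control 1, control 2 or knockout 3 the number of these 7 subunits called was 3 each time. Cox6b2, a testis form of subunit 6b, averaged 0.116 CPM in the controls and 0.0580 CPM in the knockouts and was too scarce to be tested.

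The 3 core subunits encoded by mitochondrial DNA also fell. COX1, which holds the oxygen-binding site, read 55560, 53890 and 50430 CPM in the controls and 29550, 27920, 24890 and 33890 CPM in the knockouts. The knockouts all lay well below the controls. Its log2 fold change was -0.87 (edgeR adjusted p = 0.0238), and leaving out any control, knockout 2 or knockout 3 ended the call (adjusted p from 0.0519 to 0.0829). COX2, which takes electrons from cytochrome c, and COX3 had log2 fold changes of -0.87 and -0.88 (adjusted p = 0.0100 and 0.0110). Cycs, the gene of cytochrome c, fell on the log2 scale by 0.58 (edgeR adjusted p = 0.0178), with means of 551.7 ± 53.0 CPM in control and 368.3 ± 55.1 CPM in knockout muscle. That call was lost without control 1 (adjusted p = 0.0641) or control 2 (0.0552).

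**Figure D4:**
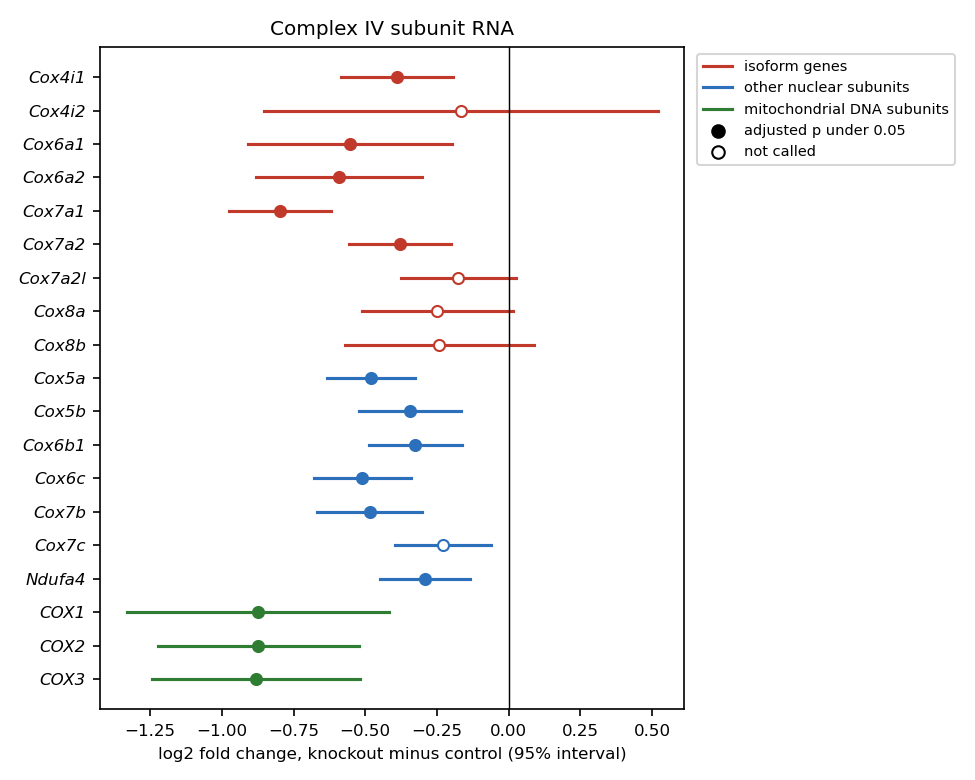
Log2 fold change, knockout minus control (x axis), with its 95% interval for the 9 isoform genes, the 7 other nuclear subunits and the 3 subunits encoded by mitochondrial DNA; filled points have an adjusted p under 0.05. All 19 estimates lie below 0, and Cox7a1 at -0.80 is the isoform gene nearest to the values of COX1, COX2 and COX3.

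Genes that build complex IV without being part of it were counted in the same way. Of 23 tested assembly factors and copper or heme carriers, 1 rose, 1 fell and 21 did not pass, where 14.9% of all tested genes were called, with a median log2 fold change of -0.126. Cox16, known in human cells for a role in the assembly of COX2, was higher, at 20.8 ± 1.64 CPM in the controls and 26.7 ± 1.54 CPM in the knockouts, a log2 fold change of 0.36 (edgeR adjusted p = 0.0312). Taco1, the translational activator of COX1, averaged 28.3 ± 1.15 CPM in control and 21.7 ± 2.70 CPM in knockout muscle (log2 fold change -0.38, edgeR adjusted p = 0.0420). Both calls were fragile: each was lost in at least 5 of the 7 fits that leave out a library, with adjusted p up to 0.114 for Cox16 and 0.131 for Taco1. At an unadjusted p under 0.05 there were 8 genes on this list. Such values were common: Yy1, with an unadjusted edgeR p of 0.051, ranked 4295 by p among all 13409 tested genes. The 8 of 23 were thus near the share over all tested genes.

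Of the 9 supercomplex and hypoxia factors tested with edgeR, none passed, and 1 had an unadjusted p under 0.05. Both shares were larger among all tested genes: 14.9% were called, and Yy1 at rank 4295 of 13409 lay just above the unadjusted threshold. Higd1a, a hypoxia-induced binder of complex IV, had a log2 fold change of -0.27 (edgeR adjusted p = 0.0765). Cxxc5, known in human cells to act on the oxygen-responsive element of the Cox4i2 promoter, had a log2 fold change of -0.35 (edgeR adjusted p = 0.203).

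Of 17 transcription factors and coactivators of respiratory and muscle genes, 3 fell, none rose and 14 did not pass, a share near the 14.9% called among all tested genes. Esrrb, an estrogen-related receptor, read 10.4, 9.09 and 6.88 CPM in the controls and 3.12, 2.44, 1.83 and 2.38 CPM in the knockouts. Its groups did not overlap, and the log2 fold change was -1.84 (SE 0.201, edgeR adjusted p = 0.00297). Perm1 and Ppargc1b, muscle coactivators of such receptors, had log2 fold changes of -0.69 and -0.66 (edgeR adjusted p = 0.0406 and 0.0494). Both lost their calls in 6 of the 7 fits that leave out a library. The median over the 17 genes was 0.031, and the number that fell was 1 in each of 6 such fits and 5 without knockout 2.

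The genes whose level followed Cox7a1, Cox6a2, Cox8b or Cox4i2 most closely over the 7 libraries were picked by Pearson r of log2 CPM. The picks are a description with no test, and the distance between the groups enters these r values. For Cox7a1, among 10726 genes compared, they were Atp5j2 (subunit f of ATP synthase, r = 0.997), Cpt2 (carnitine palmitoyltransferase of the inner membrane, r = 0.996) and Lace1 (a mitochondrial ATPase, r = 0.995). Atp5j2 fell by 0.31, Cpt2 by 0.64 and Lace1 by 0.60 on the log2 scale (edgeR adjusted p = 0.0166, 0.00310 and 0.00859). For Cox6a2 they were Cox5b (r = 0.987), Endog (a mitochondrial nuclease, r = 0.984) and Mybpc1 (slow myosin-binding protein C, r = 0.984). Cox5b and Mybpc1 passed the test, and Endog did not (edgeR adjusted p = 0.0508). For Cox8b they were Fam234b, Pmm1 and Rnf31 (r = 0.979, 0.974 and 0.973), and for Cox4i2 1810026B05Rik, Kalrn and Lpin3 (r = 0.975, 0.974 and 0.962). None of these last 6 genes passed the test, and their log2 fold changes ran from -0.38 for Fam234b to -0.11 for 1810026B05Rik and Pmm1. The r values of Cox4i2 rest on few counts, 15 to 31 a library.

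Markers of slow fibres were measured in the same libraries. The summed level of 7 slow fibre markers was 1683, 1961 and 1915 CPM in the controls and 654.8, 105.8, 61.7 and 656.4 CPM in the knockouts. All 7 were lower in every knockout than in any control, but only 2 passed the test and 5 did not. The shares over all tested genes were 14.8% lower in every knockout than in any control and 8.23% called lower. Myh7, the slow myosin, read 646.2, 761.6 and 762.1 CPM in the controls and 237.6, 9.29, 5.78 and 288 CPM in the knockouts (edgeR adjusted p = 0.165). Knockouts 2 and 3 were the lowest, and the groups did not overlap. Myh2 and Myh1, the fast oxidative and intermediate myosins, had log2 fold changes of -2.25 and -1.45 (adjusted p = 0.0485 and 0.0292), and Myh4, the fast glycolytic myosin, 1.11 (adjusted p = 0.0381). The call of Myh2 was lost without any library other than knockout 3 (adjusted p up to 0.117) and that of Myh4 without any other than knockout 1 (up to 0.152). For Myh1, leaving out any of the controls or knockout 1 ended the call (adjusted p up to 0.0788). The part of fibre type in the isoform levels was not tested.

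Markers of other cells in muscle were measured beside the isoform genes, and no list held a gene that rose. Among all tested genes 8.23% were called lower. Of 7 genes listed as markers of skeletal muscle fibres 1 fell, and their summed level was 67170 to 76050 CPM in the controls and 61180 to 75690 CPM in the knockouts. The gene that fell was Mb (myoglobin), with means of 3527 CPM in the controls and 781.6 CPM in the knockouts. Its log2 fold change was -2.17 (edgeR adjusted p = 0.0101), and the other 6 markers did not pass. Of 10 markers of pericytes and smooth muscle, cells in which Cox4i2 is known to be expressed, 5 fell, and the sums were 723.5 to 827.6 CPM and 705.1 to 742.3 CPM. Rgs5 and Abcc9, at control means of 283.5 and 284.1 CPM, weighed most in these sums and did not pass. Those that fell were Kcnj8, Cspg4, Pdgfrb, Acta2 and Myh11, with log2 fold changes from -0.71 to -0.37. Abcc9 and Mcam had log2 fold changes above 0. The sums of 8 endothelial markers, of which 1 fell, were 242.6 to 286.4 CPM and 199.2 to 219.1 CPM. Of 6 fibroblast markers 2 fell (257.9 to 504.9 CPM against 197.8 to 295.6 CPM), and of 5 macrophage markers 2 fell (21.98 to 22.9 CPM against 10.1 to 16.1 CPM).

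Heart and brown fat also use the muscle forms. Of 5 heart markers only Myh6 was abundant enough to test, and it fell, while the 5 together summed to 4.21 to 5.35 CPM in the controls and 0.943 to 2.32 CPM in the knockouts. Of 8 fat cell markers 6 were tested and 2 fell (130.4 to 148.8 CPM against 83.8 to 126.4 CPM). The genes that fell were Fabp4 and Retn. Fabp4 made up most of these sums, at means of 127.7 CPM in the controls and 87.9 CPM in the knockouts. Adipoq, Plin1, Cidec and Cidea did not pass (edgeR adjusted p from 0.162 to 0.404). Ucp1, which defines brown fat, was at 0 in 6 of the 7 libraries and at 1 count in knockout 3. The part of these cells in the isoform levels was not tested.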

How the data were processed

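Gastrocnemius RNA of 3 control and 4 knockout samples was sequenced as 150 bp paired ends on a BGISEQ-500, aimed at 30 M reads, per the labels' protocols. The authors aligned reads to mm10 with STAR 2.7.10a and estimated counts per gene with RSEM 1.2.28, per the series' design text and the submitters' processing notes, which also name DESeq2 1.3.40 as given there. The deposited table holds RSEM expected counts by gene symbol. The annotation and the strand setting were not given in the sources used here. Library totals were 24458343 to 26389010 counts, and all 7 count columns were used.

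Expected counts were rounded and tested in R 4.3.3 with edgeR 4.0.16 (filterByExpr, TMM, quasi-likelihood F test, no covariate), with Benjamini-Hochberg adjustment over 13409 genes and calls at an adjusted p under 0.05. The standard error is the log2 fold change over the root of F. Isoform ratios used counts plus 0.5 and a 2-sided exact permutation test over 35 splits, adjusted over 5 ratios. Levels per kb used GENCODE M21 transcripts on GRCm38, the mm10 assembly. Groups were called separated where every knockout lay beyond every control.

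Members and lists were chosen with earlier results of these data known. Always named were the 9 genes, Park7, the lists of other subunits and cytochrome c, and 4 myosins. Each other list gave up to 4 called genes with the smallest p (2 where none was called), and each of Cox4i2, Cox6a2, Cox7a1 and Cox8b its 3 most correlated genes with an average log2 CPM above 1 (prior count 2). Ckm, Acta1, Myh6, Ucp1, Emc8 and Itgad were named after their values were seen, as checks of label or overlap. Also named after their values were seen were Yy1, Mb, Rgs5, Abcc9, Kcnj8, Cspg4, Pdgfrb, Acta2, Myh11, Mcam, Fabp4, Retn, Adipoq, Plin1, Cidec and Cidea. Cox7b2, Cox8c, Cyct and Coa1 were not analysed here.

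On simulated counts for 13409 genes, 67 were changed 1.5-fold, 67 were changed 2-fold and 66 were changed 4-fold. The test recovered 43.3%, 76.1% and 97% of them, and 4% of its calls were unchanged genes. These rates describe the simulated counts only, where far fewer genes changed than the 1998 called in the data. Alternatives were RLE and upper quartile scaling, scaling without mitochondrial mRNAs, a mean count of 10 or more, no filter, DESeq2 1.42.0, a replicate block, each library left out, and, for ratios, no pseudocount and unrounded counts.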

Additional observations from a re-analysis of the deposited data

Results flagged for a closer look

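Among the 49 sets of 4 knockout values examined for a sample far from the others, 1 had such a sample: Cox6a1 in knockout 2, at 8.60 CPM, against 5.88, 6.17 and 6.33 CPM in knockouts 1, 3 and 4. Its gap to the nearest library was 0.835 of the range of the 4 values, just above the critical value of Dixon's test for 4 samples. Chance alone gives such a sample in about 1 in 20 sets, so a single one among 49 is no more than chance gives. Without knockout 2 the log2 fold change of Cox6a1 was -0.69 in place of -0.55 (edgeR adjusted p = 0.0129).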

How the results depend on the processing

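Cox7a1 was called under all alternatives, with a log2 fold change from -0.85 to -0.76. The 9 isoform genes had 5 calls, 4 to 5 under other scalings, filters, DESeq2 and the block, and 1 to 5 with a library left out. Leaving out libraries gave 3 to 6 calls among other nuclear subunits, 2 to 3 among mitochondrial DNA subunits, 0 to 1 for cytochrome c, 0 to 1 lower and 0 to 1 higher among assembly genes, and 1 to 5 lower and 0 to 2 higher among transcription factors. Over all genes 793 to 2057 were called. Assembly genes called lower numbered 2 with upper quartile scaling and 0 with no filter, those called higher 0 with upper quartile scaling, and 1 supercomplex gene was called lower with that scaling, which moved the median of all genes to -0.043.

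The correlations did not settle whether the numbers of the labels pair the samples. Those of same-numbered samples were 0.094, 0.134 and 0.085, each the best for its knockout. Those of differently numbered samples ran from -0.132 to 0.054. With a replicate block, to which knockout 4 adds nothing, 4 isoform genes and 1273 of all genes were called, and 0 assembly genes in either direction. The Cox7a1 over Cox7a2 difference with the block was -0.418 (exact p = 0.25, the smallest that 3 pairs can give).

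With a library left out, ratio differences ran from -0.459 to -0.344 for Cox7a1 over Cox7a2 (exact p 0.0667 to 0.1, which cannot reach 0.05), -0.011 to 0.334 for Cox4i2 over Cox4i1, -0.155 to 0.038 for Cox6a2 over Cox6a1 and -0.076 to 0.091 for Cox8b over Cox8a, so the last 3 changed sign. Causes were not tested. Depth limits Cox4i2 most, at 15 to 31 counts a library.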
